A study of Mus musculus with 6 samples.

Results

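The transcripts described here are those of the 3 NR4A nuclear receptors (Nr4a1, Nr4a2 and Nr4a3), the AP-1 and EGR factors Fos, Fosb, Junb and Egr1, and the early-response genes Hes1, Nfil3 and Arrdc3. They were taken by gene name as 10 of the 16300 genes measured by RNA-seq in mouse granulosa cells (GCs), the hormone-producing cells around the egg in a follicle of the ovary. The genes were selected on their normalized counts in these same libraries, because 1 control library lay near the treated libraries for several of the genes. The levels of the 10 genes and their differences between groups are therefore given as a description, with no test.

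The study asked how androgens alter the transcripts of GCs. The control group held 3 libraries of untreated wild type C57BL/6J GCs, and the DHT group held 3 libraries of GCs of the same genotype and strain that received 25 nM dihydrotestosterone (DHT), an androgen that aromatase does not turn into an estrogen, for 24 h. All mice were aged 8 to 9 weeks. Per the methods of the study, each experiment pooled the GCs of several mice, which were cultured with serum and then starved of serum before treatment. The labels of the samples name GCs as the cell type but whole ovary as the extracted material.

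Immediate-early genes are transcribed within minutes of a stimulus and need no new protein for it, and their mRNAs usually decay fast. NR4A receptors bind DNA without a known physiological ligand, so their activity is thought to follow their amount. In the ovary they are known for their fast rise after the luteinizing hormone surge, which acts through cAMP and the factor CREB, and for binding the promoters of steroidogenic genes. Fos, FosB and JunB pair into the AP-1 factor, and Egr1 is a zinc-finger factor induced through the serum response factor. Hes1 is a repressor and a classical Notch target, Nfil3 is a bZIP repressor of clock output genes, and Arrdc3 is an arrestin-domain adaptor that takes part in receptor trafficking.

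The promoters of the NR4A genes, Fos and Nfil3 are shown as examples of genes with 4, 2 and 1 CRE half-sites, the 5-letter core bound by CREB. Each sequence is the 250 bases before a transcription start in RefSeq, build GRCm38.p6, written 5′ to 3′ on the strand of the gene, with the half-site TGACG, or CGTCA where it lies on the opposite strand, in capitals. The windows are chr15:101266596-101266845 (+) for Nr4a1, chr2:57124004-57124253 (-) for Nr4a2, chr4:48045055-48045304 (+) for Nr4a3, chr12:85473640-85473889 (+) for Fos and chr13:52981040-52981289 (-) for Nfil3.
Nr4a1: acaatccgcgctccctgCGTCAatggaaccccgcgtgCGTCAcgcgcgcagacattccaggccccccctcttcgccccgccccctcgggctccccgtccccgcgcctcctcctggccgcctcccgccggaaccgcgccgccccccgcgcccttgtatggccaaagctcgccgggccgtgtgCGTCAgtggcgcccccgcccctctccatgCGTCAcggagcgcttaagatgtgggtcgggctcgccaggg
Nr4a2: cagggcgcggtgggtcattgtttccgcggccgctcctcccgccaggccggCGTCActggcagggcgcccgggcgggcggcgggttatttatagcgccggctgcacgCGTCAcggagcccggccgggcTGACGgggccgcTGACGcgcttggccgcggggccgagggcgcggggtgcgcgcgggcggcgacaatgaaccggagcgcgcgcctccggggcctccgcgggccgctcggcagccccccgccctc
Nr4a3: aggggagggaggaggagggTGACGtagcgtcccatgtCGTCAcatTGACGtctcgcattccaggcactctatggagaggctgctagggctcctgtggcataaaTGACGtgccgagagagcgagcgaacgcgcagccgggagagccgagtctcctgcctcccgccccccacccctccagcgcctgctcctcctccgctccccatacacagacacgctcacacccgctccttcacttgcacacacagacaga
Fos: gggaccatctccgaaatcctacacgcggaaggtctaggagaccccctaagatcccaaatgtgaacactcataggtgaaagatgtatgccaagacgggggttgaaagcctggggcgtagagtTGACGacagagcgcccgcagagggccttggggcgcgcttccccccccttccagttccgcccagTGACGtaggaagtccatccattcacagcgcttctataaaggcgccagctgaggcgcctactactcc
Nfil3: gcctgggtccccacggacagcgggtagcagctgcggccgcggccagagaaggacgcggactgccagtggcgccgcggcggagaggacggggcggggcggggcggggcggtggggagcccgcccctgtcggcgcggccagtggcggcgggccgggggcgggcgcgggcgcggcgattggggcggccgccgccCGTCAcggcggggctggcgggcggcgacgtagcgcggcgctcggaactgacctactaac

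RefSeq promoters were matched for 8 of the 10 genes, and windows from 250 bases before to 50 bases after the start were searched on both strands. All 8 genes held a CRE half-site. The half-site was found in 26 of 47 other immediate-early genes (55.3%), in 23.0% of 27025 genes and in 20.8% of 32851 promoters. Nr4a1, Nr4a2 and Nr4a3 held 4 each, Fos held 2, and Fosb, Junb, Nfil3 and Arrdc3 held 1 each. The site of Arrdc3 lay in 1 of its 3 promoters. The first letters of the NR4A sites lay between -233 and -40 in Nr4a1, -200 and -111 in Nr4a2, and -231 and -147 in Nr4a3, counted from the start of transcription. In Fos they lay at -129 and -66, and in Nfil3 the single site lay at -59.

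The full palindrome TGACGTCA, which contains the half-site on both strands, was in none of the 8 genes, in 5 of the 47 other immediate-early genes (10.6%) and in 1.79% of all promoters. The AP-1 motif TGANTCA, the NR4A motif AAAGGTCA, the CArG box and the palindromic androgen response element were likewise not found in these windows. Their shares of all promoters were 7.81%, 1.51%, 1.63% and 0.00913%, and 3, 0, 4 and 1 of the 47 other immediate-early genes held them. The EGR motif GCGNGGGCG was found in 5 of the 8 genes, Nr4a1, Nr4a2, Fosb, Nfil3 and Arrdc3, in 13 of the 47 other immediate-early genes (27.7%), in 6.27% of all genes and in 5.55% of all promoters. TATAAA was found in 3 of the 8, Nr4a2, Junb and Fos, in 19.1% of the 47, in 15.7% of all genes and in 13.6% of all promoters. The GC content of the promoters of the 8 genes ranged from 58.4% to 81.6%, against a median of 52.4% over all promoters, and its part in the motif shares was not tested. A match gives letters in a window and no measured binding.

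**Figure D1:**
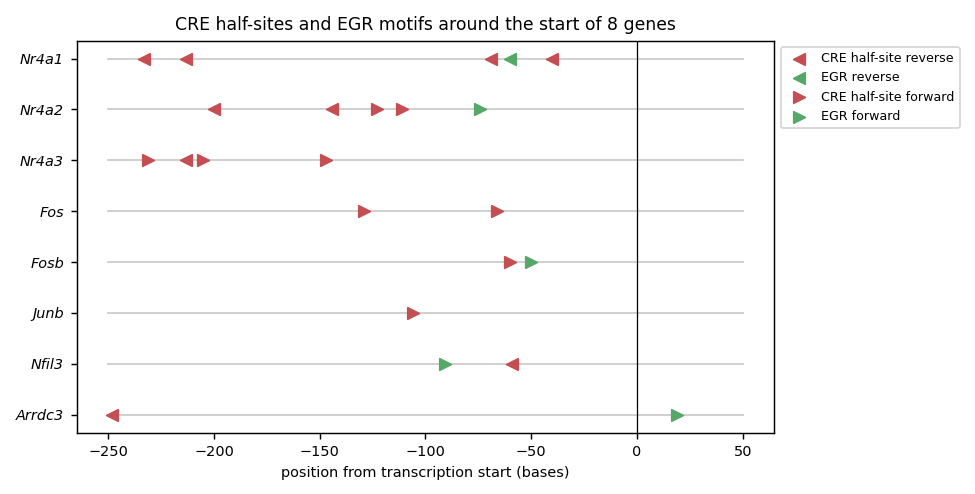
Position of each CRE half-site (red) and EGR motif (green) from 250 bases before to 50 bases after the transcription start of 8 genes, in bases, with arrows to the right for the strand of the gene and to the left for the opposite strand. The 3 NR4A genes carry 4 half-sites each, and all other genes carry 1 or 2.

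On GRCm38 with the GENCODE annotation, the genes lie at chr15:101254269-101274795 (Nr4a1), chr2:57106830-57124003 (Nr4a2), chr4:48045153-48086447 (Nr4a3), chr12:85473890-85477273 (Fos), chr7:19302696-19310051 (Fosb), chr8:84974484-84978718 (Junb), chr16:30064384-30067796 (Hes1), chr13:52967209-52981073 (Nfil3) and chr13:80883384-80896042 (Arrdc3), and Egr1 lies on chromosome 18. All are protein coding, and the values are summed over their exons. Only Junb has exons that overlap those of another gene, Prdx2 on the other strand, a peroxiredoxin at 20249 to 23728 normalized counts. The strand setting of the counting is not given in the sources used here, so some reads of either gene could have been counted for the other.

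The unit throughout is the normalized count, reads per gene scaled by the size factor of each library. The libraries held 36111177 to 41928585 reads on genes. Mitochondrial genes took 2.53% to 2.72% of the reads. Of 10 GC markers 9 were measured, of which 1 rose, 2 fell and 6 did not pass limma with Benjamini-Hochberg adjustment (2 and 2 called without control replicate 3). Foxl2, a factor that defines GC identity, fell from 2505 ± 78.2 to 2256 ± 55.5 normalized counts (SD, n = 3, adjusted p = 0.049, limma), but did not pass by DESeq2 (adjusted p = 0.0765) or with the replicate block (0.133). Inha, the inhibin alpha subunit, fell from 54181 ± 5157 to 35515 ± 3032 (adjusted p = 0.00162, limma). Hsd17b1, which makes estradiol from estrone, rose from 6296 ± 745 to 8766 ± 313 (adjusted p = 0.00442, limma). The summed markers of theca and interstitial cells (4 of 6 measured) were 6755 to 8893 in control and 10496 to 12023 in DHT libraries, without overlap, and Acta2, a smooth muscle actin, rose by 0.76 on the log2 scale (adjusted p = 0.00564, limma). Acta2 made up most of that sum, and Ptch1, the hedgehog receptor of the same list, had 2411, 2444 and 2773 in control and 2188, 2294 and 2172 in DHT libraries, with an adjusted p of 0.064 by limma and 0.0369 by DESeq2. Lhcgr of that list was low, at 32.7, 12.1 and 63.9 in control and 68.5, 74.2 and 95.8 in DHT libraries. Its adjusted p was 0.11 by limma and 0.0389 by DESeq2. In the fit without control replicate 3, 2 of the 4 genes, Acta2 and Lhcgr, passed as higher. The sum for fibroblasts and stroma (6 of 6) was lower with DHT, also without overlap, at 3139 to 3153 and 2556 to 2953, and none of its genes passed limma, edgeR or DESeq2, while 2 were lower by limma before adjustment. Dcn, an extracellular matrix proteoglycan, passed as lower when control replicate 3 was left out (log2 fold change -1.40, adjusted p = 0.0183, limma). The summed markers of oocytes (6 of 6 measured) were 337 to 781 in control and 106 to 554 in DHT libraries, those of leukocytes (5 of 6) 504 to 592 and 409 to 647, and those of endothelial cells (4 of 6) 150 to 179 and 141 to 199. Csf1r, a macrophage receptor, fell by 0.64 on the log2 scale (adjusted p = 0.027, limma), but did not pass with the replicate block (0.0654). Ptprc, the leukocyte common antigen, was low at 5.94, 8.36 and 11.1 in control and 15.7, 12 and 15.2 in DHT libraries and did not pass (adjusted p = 0.215, limma). Leaving out control replicate 3, the log2 fold changes of Foxl2, Inha, Hsd17b1, Acta2 and Csf1r were -0.17, -0.66, 0.55, 0.78 and -0.67. The part of these cells in the results was not tested.

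Control replicate 3 stood apart from control replicates 1 and 2 on most of the 10 genes. The Euclidean distance over the log2 values of the 10 genes was 0.88 between control replicates 1 and 2, but 6.48 and 6.37 between control replicate 3 and these libraries. From control replicate 3 to DHT replicates 1, 2 and 3 the distance was 0.933, 1.43 and 1.77. Over all genes the order was not the same, since control replicate 3 lay 48.3 and 44.2 from the other controls and 48.3, 58.8 and 57.6 from the DHT libraries. Its label was kept. The differences of the 10 genes and the calls among other early genes are given below with and without it. Because the library was singled out by its values in these genes, the values without it are a description.

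Nr4a1, the most abundant NR4A transcript, was measured at 1950.2, 2546 and 10385 normalized counts in control replicates 1, 2 and 3, and at 9911, 7263 and 6431 in DHT replicates 1, 2 and 3. Control replicate 3 was the highest of all 6 libraries, 5.33 times control replicate 1 and 4.08 times control replicate 2, so the groups overlapped. The mean was 4960.4 ± 4707 in control GCs and 7868 ± 1817 with DHT (SD, n = 3).

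Nr4a2, its close relative known for its role in dopaminergic neurons, was measured at 378, 499 and 1225 in control and at 1263, 904 and 705 in DHT libraries. Control replicate 3 fell inside the range of the DHT libraries, and the other controls lay below it. The means were 701 ± 458 and 958 ± 283 (SD, n = 3).

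Nr4a3, the least abundant of the 10 genes, was measured at 24.7, 19.5 and 427 in control and at 415, 212 and 204 in DHT libraries. These values rest on 25, 21 and 461 reads in control and on 424, 194 and 187 reads in DHT libraries. Control replicate 3 was again the highest, at 17.3 and 21.9 times the other controls. Its group means were 157 ± 234 and 277 ± 119.8 (SD, n = 3), and the highest library stood 21.9 times over the lowest.

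The 3 NR4A genes shared one order among the DHT libraries, with replicate 1 highest and replicate 3 lowest. Their coefficient of variation was 94.9%, 65.4% and 149% in control and 23.1%, 29.5% and 43.3% in DHT libraries for Nr4a1, Nr4a2 and Nr4a3. In bulk RNA, more cells with a transcript and more transcript per cell cannot be told apart.

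**Figure D2:**
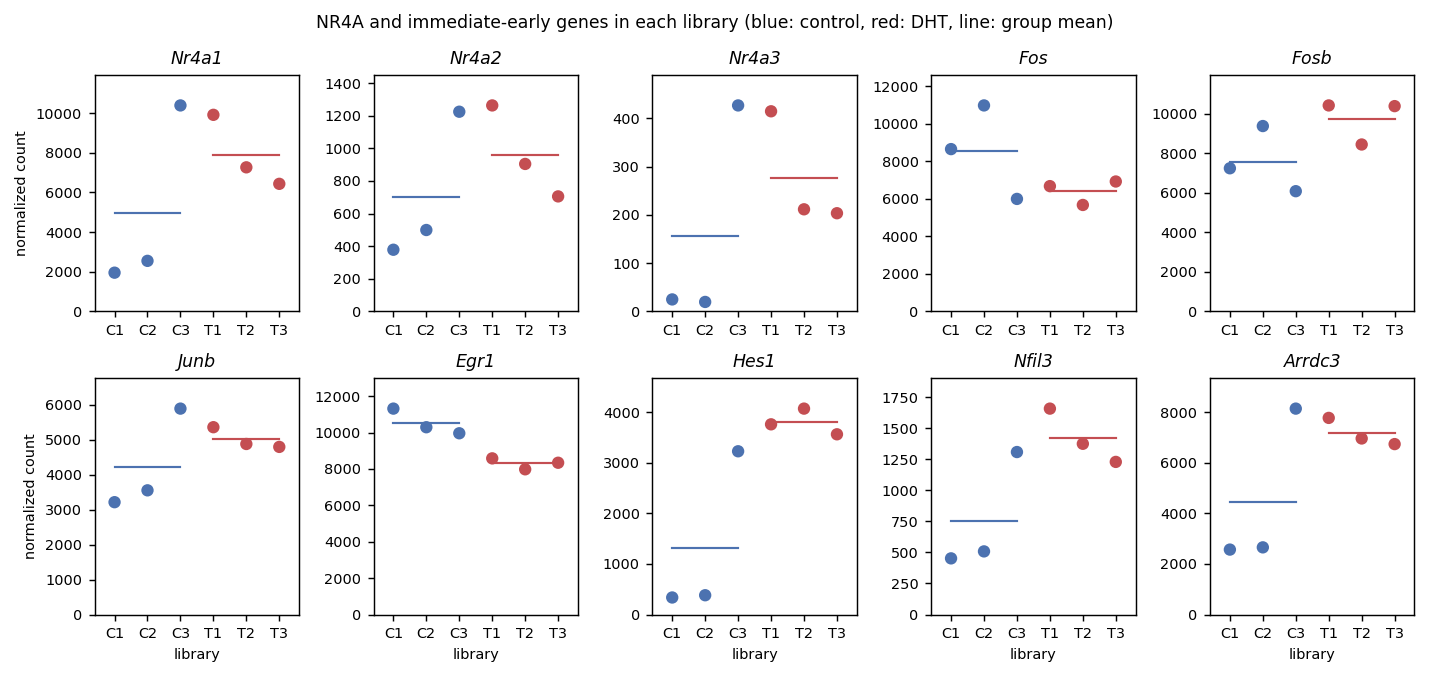
Normalized count of each of the 10 genes in each library (C1 to C3, control replicates, blue; T1 to T3, DHT replicates, red), with a line at the mean of each group and a separate vertical axis for each gene. In Nr4a1, Nr4a3, Junb and Arrdc3 the highest point is control replicate 3, and in Egr1 all control points, 9964 or more, lie above all DHT points, 8585 or less.

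Hes1, the Notch target, had the widest gap between control libraries after Nr4a3. It was measured at 337, 382 and 3230.3 normalized counts in control and at 3763, 4074 and 3566 in DHT libraries. Every DHT library was above every control library, but control replicate 3 lay 9.57 and 8.46 times above the other controls and only just under the DHT libraries, whose mean was 1.18 times its value. Hes1 was the only one of the 10 genes with all DHT libraries above all control libraries, a position held by 15.9% of the 16292 genes tested.

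Nfil3, the clock-output repressor, was measured at 452, 508 and 1308 in control and at 1658, 1374 and 1229 in DHT libraries. Control replicate 3 fell between DHT replicates 2 and 3, at 2.89 and 2.57 times the other controls. The mean was 756 ± 479 in control GCs and 1420.3 ± 218 with DHT (SD, n = 3).

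Arrdc3, the arrestin-domain adaptor, was measured at 2569, 2657 and 8144 in control and at 7776, 6963 and 6741 in DHT libraries. Control replicate 3 was the highest library, and the other controls were the lowest. The coefficient of variation was 71.7% in control and 7.62% in DHT libraries, and for Hes1 it was 126% and 6.74%.

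Junb, the JUN-family partner in AP-1, was measured at 3214, 3553 and 5890.0 normalized counts in control and at 5359, 4878 and 4795 in DHT libraries. Control replicate 3 was again highest, at 1.83 and 1.66 times the other controls, a smaller step than in the NR4A genes. The means were 4219 ± 1457 and 5011 ± 304 (SD, n = 3).

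Fos, the FOS-family partner of Junb in AP-1, ran the other way. It was measured at 8644, 10971 and 5990.1 in control and at 6672, 5668 and 6918 in DHT libraries. Control replicate 3 lay inside the range of the DHT libraries, and the other controls were the highest of the 6. The mean was 8535 ± 2492 in control GCs and 6419 ± 662 with DHT (SD, n = 3).

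Fosb, a FOS-family relative, was measured at 7246, 9384 and 6085 in control and at 10428, 8449.9 and 10393 in DHT libraries. Control replicate 3 was the lowest of the 6, and control replicate 2 lay within the DHT range. Its means were 7572 ± 1673 and 9757 ± 1132 (SD, n = 3), so Fosb did not share the place of control replicate 3 seen in Fos or in the NR4A genes.

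Egr1, the zinc-finger factor, was measured at 11319, 10296 and 9964 in control and at 8585, 7983 and 8344 in DHT libraries. All DHT libraries were below all control libraries, a position that 14.7% of all genes tested held. The coefficient of variation was 6.71% in control, the smallest of the 10 genes, and 3.65% in DHT libraries. Control replicate 3 lay nearer to the other controls than to the DHT libraries.

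Per kilobase of exon, the median level over the 6 libraries was highest in Fos (2889 normalized counts per kb, range 2409.9 to 4665). Junb (2102, range 1397 to 2559.8), Egr1 (2068, range 1780.3 to 2524), Nr4a1 (1951, range 556 to 2959.5), Hes1 (1668, range 166 to 2000.2), Fosb (1428, range 975 to 1670.4), Arrdc3 (1094, range 409.9 to 1299.7) and Nfil3 (626, range 223 to 818) followed. The ranges of each of these neighbours in the order overlapped. Nr4a2 (198, range 93.1 to 311) overlapped with Nfil3 above it, and Nr4a3 (34.7, range 3.26 to 71.3) lay below all others without overlap. Within the NR4A family the order Nr4a1, Nr4a2, Nr4a3 held in every library.

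With all 6 libraries, the log2 fold change of DHT against control, on the log2(value + 1) scale, was 1.06 for Nr4a1, 0.60 for Nr4a2 and 2.11 for Nr4a3, with standard errors of 0.51, 0.38 and 0.97. Without control replicate 3 it was 1.80, 1.10 and 3.51, without control replicate 1 it was 0.59, 0.25 and 1.49, and without control replicate 2 it was 0.78, 0.45 and 1.32. Hes1 had 2.34 with all libraries and 3.40 without control replicate 3, Nfil3 1.07 and 1.55, and Arrdc3 0.90 and 1.45. Without control replicate 1, Hes1, Nfil3 and Arrdc3 had 1.77, 0.79 and 0.62, and without control replicate 2 they had 1.86, 0.87 and 0.64. These 6 genes had absolute log2 fold changes above 1 without control replicate 3, against 4 of them with it. In the count models, which compare mean counts and not mean log2 values, the values with all libraries were smaller. By edgeR they were 0.67 for Nr4a1, 0.45 for Nr4a2, 0.82 for Nr4a3, 1.53 for Hes1, 0.91 for Nfil3 and 0.69 for Arrdc3, so that Hes1 alone of the 10 genes was beyond 1, and by DESeq2 likewise.

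The AP-1 and EGR factors had smaller differences. Junb had a log2 fold change of 0.30 with all libraries and 0.57 without control replicate 3, Fosb 0.38 and 0.24, Fos -0.37 and -0.61, and Egr1 -0.34 and -0.38. The standard errors with all libraries were 0.19, 0.14, 0.18 and 0.05. Leaving out control replicate 1 gave 0.13, 0.36, -0.34 and -0.29 for Junb, Fosb, Fos and Egr1, and leaving out control replicate 2 gave 0.20, 0.55, -0.17 and -0.36. No sign of the 10 genes changed when any single control library was left out. The median over the 10 genes was 0.75 with all libraries and 1.27 without control replicate 3, beside -0.01 and -0.00 over all genes tested.

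Set against control replicate 1 alone, the mean of the DHT libraries was 4.03 times as high for Nr4a1, 11.2 times for Nr4a3 and 11.3 times for Hes1. Against control replicate 2 the ratios were 3.09, 14.2 and 9.95. Against control replicate 3 they were 0.758, 0.648 and 1.18. For Nr4a1, Nr4a2, Nr4a3, Junb and Arrdc3, the DHT mean was thus above 2 of the control libraries and below the other. For Fos it was below control replicates 1 and 2, with ratios of 0.743 and 0.585, and above control replicate 3, with a ratio of 1.07.

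**Figure D3:**
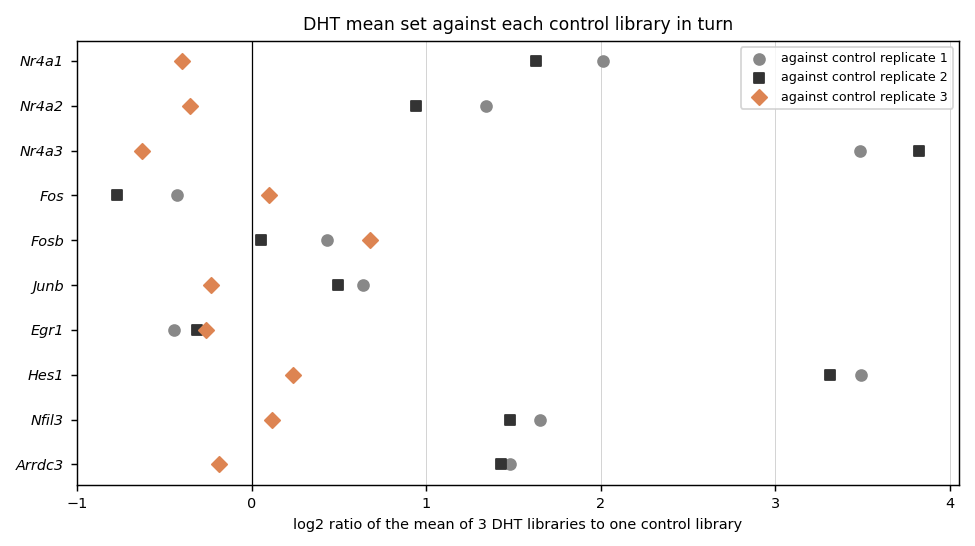
Log2 ratio of the mean of the 3 DHT libraries to each control library in turn (circle, replicate 1; square, replicate 2; diamond, replicate 3) for the 10 genes, with a vertical line at no difference. The diamonds lie close to the line or to its left in all genes but Fosb (ratio 1.60), while circles and squares of Nr4a3 and Hes1 lie at a ratio of 9.95 or more.

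By the distance on the log2 scale to the mean of the DHT libraries and to the mean of the other controls, control replicate 3 was nearer to the DHT libraries in 8 of the 10 genes, all but Fosb and Egr1. The same was true in 44.8% of all genes tested. Control replicate 1 was nearer to the DHT libraries in 0 of the 10 genes (36.8% of all genes) and control replicate 2 in 1, Fosb (38.2%). Control replicate 3 lay inside the DHT range in 3 of the 10, Nr4a2, Fos and Nfil3 (35.6% of all genes), against 0 for control replicate 1 (31.5%) and 1 for control replicate 2 (34.9%). The genes were chosen for this place of control replicate 3, so nothing is read from these counts.

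In 5 of the 10 genes, Hes1, Nr4a3, Arrdc3, Nr4a1 and Nfil3, the lowest of the other 4 libraries stood at 2 or more times the level of both control replicates 1 and 2. Over all 16292 genes tested, 16 had this pattern (0.0982%), and 7 had the reverse (0.043%). Among the 11 others were Ptgfr, the prostaglandin F receptor, at 222, 107 and 699 normalized counts in control and 979.5, 853 and 1168 in DHT libraries, and the early genes Atf3, Egr3 and Npas4. In 7 of the 10 genes control replicates 1 and 2 were the lowest libraries (12.6% of all genes). As the 10 genes were chosen for the place of control replicate 3, nothing is read from these shares either.

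A related count was made over all genes, with each control library held out of the fit in turn. Genes were called by limma with Benjamini-Hochberg adjustment where the adjusted p was 0.05 or less and the log2 fold change was beyond 1 in either direction. With all 6 libraries these calls made up 0.908% of the genes tested among those higher with DHT and 0.399% among those lower. Of the genes called without control replicate 3, 89 of 285 (31.2%) had that library nearer to the DHT libraries. For control replicates 1 and 2 the counts were 9 of 158 (5.70%) and 35 of 202 (17.3%). These 3 counts come from fits with 2 control libraries each.

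The profiles of the 10 genes over the libraries were compared by Pearson's r on log2 values, as a description over 6 libraries that share their depth and preparation. As control replicates 1 and 2 lie apart from the other 4, r mainly reflects that split. The 7 genes with both of these libraries lowest gave r of 0.88 to 0.99 in their 21 pairs. Against the mean profile of the other genes, r was 0.98 for Nr4a1, 0.96 for Nfil3, 0.95 for Junb, Arrdc3 and Nr4a3, 0.94 for Nr4a2 and 0.91 for Hes1, and it was -0.83 for Fos, -0.80 for Egr1 and 0.01 for Fosb.

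The 10 genes outside the set with profiles most like its mean were Arl15 and Nfatc4 (both r = 0.997), Rgs2 (0.993), Srl and Gm11870 (both 0.990), Srsf2, Phf6 and Cdkal1 (all 0.989), Sik1 (0.987) and Hey1 (0.986), among 12695 genes with a mean of at least 50 normalized counts. Most moved over a narrow range. Srsf2, a splicing factor, went from 9140.4 to 9707 normalized counts. Wider steps were found in Rgs2, a regulator of G-protein signalling, at 1035, 1294 and 2736 in control and 3311, 2209 and 2100.4 in DHT libraries. Sik1, a kinase induced by cAMP, had 1534, 1817 and 4144 in control and 4357, 3368 and 3035 in DHT libraries. In both, control replicate 3 and DHT replicate 1 were the highest libraries, as in the 3 NR4A genes.

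Other immediate-early genes, outside the 10, were tested between groups by limma with Benjamini-Hochberg adjustment over all genes and a threshold of 0.05. Their lists were chosen with earlier results of these data known. They are wider than the definition above and also hold feedback genes, cAMP-induced genes and regulators such as Srf and Nab1. Of 65 measured genes 13 rose (20.0%), 5 fell and 47 did not pass, and their median log2 fold change was 0.15. Over all genes tested 6.52% rose and 4.66% fell. The p-values measure only the spread between these libraries. Without control replicate 3, 29 of the 65 passed as higher (44.6%) and 5 as lower, beside 7.64% and 5.32% of all genes. All 13 were among the 29. Of the 16 called higher only in that fit, 15 had control replicate 3 nearer to the DHT libraries. That library was singled out by its values in the 10 genes, so counts and adjusted p without it, here and below, are a description. The 5 genes that fell became 3 without DHT replicate 1 and 2 without DHT replicate 3.

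Of 11 AP-1 and related bZIP genes 3 rose and none fell, with 1 lower at an unadjusted p of at most 0.05 and 1 lower by DESeq2, Jun. The counts were 5 and 1 without control replicate 3. The genes that rose were Mafk, a small MAF factor (log2 fold change 0.42 ± 0.07, SE), Jdp2, a JUN dimerization protein (0.29 ± 0.06), and Cebpb, a factor of the ovulatory response (0.32 ± 0.05), with adjusted p of 0.00466, 0.0195 and 0.00379 from limma with Benjamini-Hochberg adjustment. Their log2 fold changes were 0.50, 0.35 and 0.35 without control replicate 3. Atf3, a stress-induced bZIP factor, had 229, 269 and 612 normalized counts in control and 751, 615 and 749.8 in DHT libraries. Its adjusted p was 0.057 with all libraries and 9.95e-05 without control replicate 3, both from limma, the latter as a description. Jun had a log2 fold change of -0.27 with all libraries (adjusted p = 0.141, limma) and -0.39 without control replicate 3 (adjusted p = 0.0102), the same sign as its relative Fos.

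Of 11 genes in a list of EGR and KLF factors and other early regulators (Srf, Myc and the corepressors Nab1 and Nab2), 4 rose and none fell, with 1 lower at an unadjusted p of at most 0.05 and 0 by edgeR or DESeq2. Without control replicate 3 the counts were 7 and 1, the lower gene being Nab2, a corepressor of EGR factors like Nab1. Klf4, a factor of growth arrest, went from 1103 ± 244 to 1872 ± 182 normalized counts (SD, n = 3, adjusted p = 0.00821, limma), and Klf2 from 366 ± 48.3 to 527 ± 7.86 (adjusted p = 0.00889, limma). Nab1, a corepressor of EGR factors (log2 fold change 0.33), and Srf, the serum response factor (0.22), also rose. In the fit without control replicate 3, the log2 fold changes of Klf4, Klf2, Nab1 and Srf were 0.94, 0.62, 0.35 and 0.23. Egr3, a relative of Egr1, was low at 11.9, 8.36 and 25.9 in control and 35.2, 26.2 and 31.6 in DHT libraries, with an adjusted p of 0.107 by limma, or 0.0122 without control replicate 3. Its log2 fold change was opposite in sign to that of Egr1.

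Of 21 early feedback genes 4 rose and 2 fell, and without control replicate 3 the counts were 11 and 1. Gadd45a, a growth-arrest and DNA-damage gene, went from 3227 ± 229.9 to 4777 ± 412 normalized counts (SD, n = 3, adjusted p = 0.00123, limma). Ier5 (log2 fold change 0.56), Errfi1, an inhibitor of EGF receptor signalling (0.48), and Zfp36l2, an mRNA decay factor (0.25), rose too. Errfi1 and Zfp36l2 did not pass with the replicate block (adjusted p = 0.0628 and 0.0509, limma). Dusp4, a MAP kinase phosphatase, fell by 0.92 ± 0.11 on the log2 scale (SE, adjusted p = 0.001, limma) and Ier2 fell by 0.16 (adjusted p = 0.0483, limma, and 0.0913 without control replicate 3). Without that library the log2 fold changes were 0.62 for Gadd45a, 0.61 for Ier5, 0.60 for Errfi1, 0.28 for Zfp36l2 and -0.78 for Dusp4. Btg2, an antiproliferative gene, had 2641, 3192 and 5773 in control and 5278, 4790.0 and 4771 in DHT libraries, and control replicate 3 was its highest library, as for Nr4a1.

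Of 15 cAMP and CREB induced genes 2 rose and 2 fell, and without control replicate 3 the counts were 6 and 1. Sgk1, a serum and glucocorticoid regulated kinase, went from 15844 ± 925 to 26997 ± 1803 normalized counts (SD, n = 3, adjusted p = 0.000118, limma). Runx1 rose by 0.42 ± 0.07 on the log2 scale (SE). Pgr, the progesterone receptor, fell from 27.8 ± 3.33 to 9.83 ± 1.85 (SD, n = 3, adjusted p = 0.00997, limma), and Btc, an EGF-family ligand, fell by 0.63 (adjusted p = 0.0372, limma, and 0.0644 without control replicate 3). Without that library the log2 fold changes were 0.81 for Sgk1, 0.43 for Runx1 and -1.46 for Pgr. Sik1 and Rgs2, whose profiles were given above, had adjusted p of 0.241 and 0.217 by limma with all libraries and 0.00105 and 0.00408 without control replicate 3. Both were named for profiles like that of the 10 genes, so the values without that library are a description. Of 7 genes induced through SRF and YAP, limma called Ankrd1, which fell by 0.33 (-0.35 without control replicate 3), while edgeR called 2 and DESeq2 3. Only 1 of these genes, lower, passed limma without control replicate 3.

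**Figure D4:**
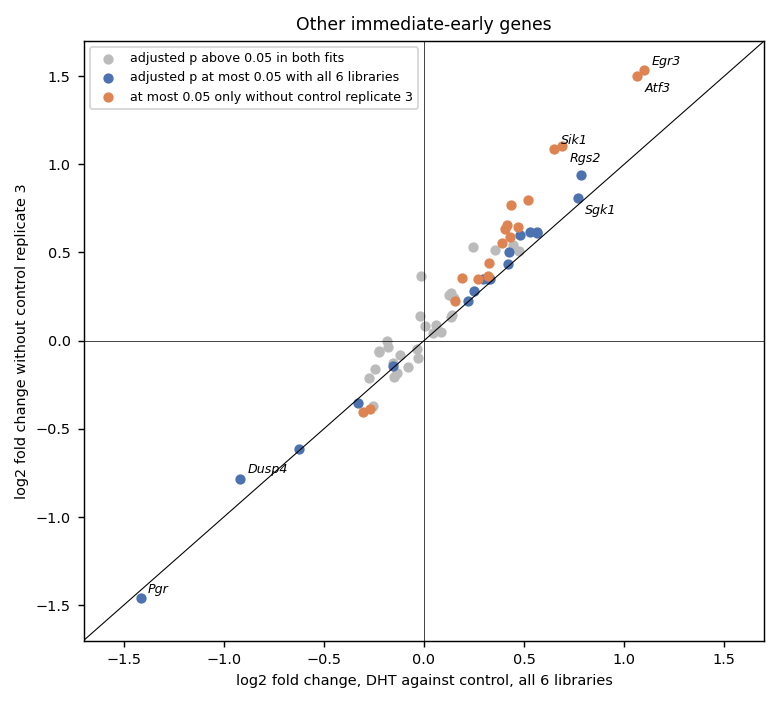
Log2 fold change of DHT against control for 65 other immediate-early genes, with all 6 libraries on the horizontal axis and without control replicate 3 on the vertical axis (grey, adjusted p above 0.05 in both; blue, at most 0.05 with all libraries; orange, only without control replicate 3; diagonal, equal values). Most orange points lie above the diagonal, with Egr3 highest at 1.53 and Atf3 next, and Pgr and Dusp4 are the lowest at -1.46 and -0.78 on the vertical axis.

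Among relatives and partners of the 10 genes, none of the 5 measured NR4A partners, which include Rxra, Rxrb and Nr5a1, passed the test by limma, edgeR or DESeq2, and 0 had an unadjusted p of at most 0.05 by limma. None passed limma without control replicate 3. Of 12 upstream factors of early genes, Elk1 and Elk3, ternary complex factors, rose by 0.21 and 0.19 on the log2 scale, but Elk3 did not pass without control replicate 3 (adjusted p = 0.0553, limma) or by DESeq2 (adjusted p = 0.0623), and neither passed with the replicate block. The log2 fold change of Elk1 was 0.22 without control replicate 3. With all libraries, Creb1 and its coactivator Crtc2 had log2 fold changes of -0.04 and 0.02. Of 4 relatives of Hes1, Hey2 passed with all libraries, and it fell by 0.79 ± 0.20 (SE, adjusted p = 0.0365, limma), opposite in sign to Hes1. Without control replicate 3, Hey2 had a log2 fold change of -1.05. Heyl at 1.46 (adjusted p = 0.00087, limma) and Hey1 at 0.73 (adjusted p = 0.00958, limma) then passed in the direction of Hes1. With all libraries Heyl and Hey1 did not pass (adjusted p = 0.12 and 0.253, limma), and their values without that library are a description. Heyl had 199, 246 and 601 normalized counts in control and 755, 621 and 481 in DHT libraries. Hey1 had 125, 157 and 254 normalized counts in control and 259, 228 and 215 in DHT libraries. Of 4 arrestin-domain relatives of Arrdc3 only Arrdc4 passed, and it fell by 0.74 ± 0.11 (SE, adjusted p = 0.003, limma), with a log2 fold change of -0.83 without control replicate 3.

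Of 7 clock-output and clock-repressor genes set beside Nfil3, Bhlhe40 and Nr1d1, both repressors, rose by 0.78 ± 0.18 and 0.59 ± 0.10 on the log2 scale (SE), with adjusted p of 0.0249 and 0.00534 by limma. Bhlhe40 did not pass by DESeq2 (adjusted p = 0.0593). Both passed without control replicate 3, and no gene of this list fell. Their log2 fold changes were 1.03 and 0.71 without control replicate 3. Bhlhe40 had 2064, 2513 and 3847 in control and 4734, 4668 and 4561 in DHT libraries. Of 5 steroidogenic genes set beside the NR4A receptors, 3 rose and none fell, at an unadjusted p as well. They were Cyp11a1, which makes pregnenolone (87825 ± 8402 to 123349 ± 13071 normalized counts, SD, n = 3), Hsd3b1, which makes progesterone (77463 ± 4534 to 117731 ± 5972), and Fdx1, which supplies electrons to Cyp11a1 (18332 ± 1739.9 to 22214 ± 608). Their adjusted p were 0.00997, 0.000457 and 0.0239 by limma. The counts were 3 and 0 without control replicate 3 as well. Star and Akr1c18 of the same list did not pass, with log2 fold changes of 0.19 and -0.01 (adjusted p = 0.255 and 0.981, limma). The log2 fold changes of Cyp11a1, Hsd3b1 and Fdx1 were 0.49, 0.60 and 0.28 with all libraries and 0.43, 0.56 and 0.35 without control replicate 3. In Cyp11a1 and Hsd3b1 control replicate 3 was the lowest library, at 80557 and 72329, the reverse of its place in Nr4a1. In Akr1c18 it was also the lowest, at 33.4, while in Fdx1 and Star it was the highest control, at 20067 and 7691.

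Early genes are known to respond to handling of cells, and 9 heat-shock and handling-stress genes were set beside them. None passed the test by limma, edgeR or DESeq2, and 1 of the 9 had an unadjusted p of at most 0.05 by limma. None passed limma without control replicate 3 either. Their summed level was 174322, 181086 and 181508 normalized counts in control replicates 1, 2 and 3 and 172246 to 173995 in DHT libraries. The sum is mostly that of Hspa8, an abundant constitutive chaperone, at 103158 to 112831. Gene by gene, control replicate 3 was nearer to the DHT libraries in 6 of the 9 (66.7%), control replicate 1 in 5 and control replicate 2 in 3. The part of handling in the results was not tested. Its share of mitochondrial reads, 2.65%, lay between those of control replicates 1 and 2.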

How the data were processed

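RNA was measured in 6 libraries, 3 control and 3 DHT, grouped by the treatment characteristic of each sample. Per the labels, reads were trimmed with Trimmomatic 0.36, mapped to GRCm38 with STAR 2.5.2b and counted with featureCounts of Subread 1.5.2. The signal the authors deposited for each gene is a normalized count, that is, reads scaled with the size factors of DESeq2. Columns that the authors deposited with the log2 fold change, p-value and adjusted p-value of their own comparison were not used. A second deposited table repeats part of the first and was not used.

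Dividing each value by the step of its library gave whole reads for 100% of the 16300 values (tolerance 1e-06), 36111177 to 41928585 per library. Genes that share a name, 41 rows, were kept apart by ID. Genes averaging 10 or more were tested on log2(value + 1) in limma 3.58.1 (R 4.3.3), with its intensity trend, Benjamini-Hochberg adjustment and a threshold of 0.05. The pseudocount understates the fold change of low genes. The test was checked on simulated data in which no library departed from its group. The check does not cover a library like control replicate 3. The 10 genes and all gene lists were chosen with earlier results of these data known. Of each list, every gene past the threshold was named where they were 6 or fewer, otherwise the 3 that rose most and the 3 that fell most, together with the 10 genes most like the mean profile. Other genes named with values (Atf3, Jun, Egr3, Nab2, Btg2, Heyl, Hspa8, Ptch1, Lhcgr, Dcn, Ptprc, Ptgfr, Npas4, Creb1, Crtc2, Rxra, Rxrb, Nr5a1, Star, Akr1c18 and Prdx2) were chosen after their values were seen.

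Alternatives were pseudocounts of 0.5 and 8, no filter and a mean of at least 50, TMM and quantile normalization, no intensity trend, the replicate number as a block, edgeR 4.0.16, DESeq2 1.42.0 and each library left out. An edgeR test without control replicate 3 was chosen after seeing the data. The labels share replicate numbers between groups but do not say that a number marks a shared pool. Promoter sequences are those of RefSeq on GRCm38.p6, and gene positions those of GENCODE on GRCm38.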

Additional observations from a re-analysis of the deposited data

How the results depend on the processing

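The numbers of genes that rose or fell over the whole table, 1063 and 760, became 501 and 303 without the intensity trend, 633 and 357 with the replicate block, and 586 to 1240 and 351 to 863 when each library was left out in turn. The lowest higher count, 586, came without DHT replicate 2 and also without DHT replicate 3, where the lower counts were 382 and 351. Of the other immediate-early genes, 13 rose and 5 fell. Without the trend these counts were 5 and 2, DESeq2 called 20 higher, the block left 3 lower, and edgeR without control replicate 3, chosen after seeing the data, called 29 higher. Leaving out each library gave 9 to 29 higher and 2 to 5 lower. The highest count came without control replicate 3 and the lowest higher count, 9, without DHT replicate 3. The lowest lower count, 2, also came without DHT replicate 3, and without DHT replicate 1 it was 3. The cause was not tested. The median log2 fold change of the 10 genes ranged from 0.48 without control replicate 1 to 1.27 without control replicate 3 in limma and was 1.29 by edgeR without that library. The count of 8 genes with control replicate 3 nearer to the DHT libraries was the same under both pseudocounts, TMM, quantile normalization and both filters. Same-numbered libraries correlated in their deviations from the group means at 0.0058, 0.067 and -0.24, and differently numbered ones at -0.19 to 0.23. These values do not settle whether a number marks a shared pool. The block gave 11 higher among the other immediate-early genes. Of the 32 named list genes, 3 lost their call without control replicate 3 (Ier2, Btc and Elk3), 15 without DHT replicate 3, 12 without DHT replicate 2, 8 without each of the other 3 libraries, 8 under the block, 21 without the trend and 4 with DESeq2, and no sign was reversed.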
